A study of Mus musculus with 66 samples.

Results

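The rectum of mice was compared between day 6 and day 3 of an experimental colitis, in 6 samples of the 66 in the series. The samples were chosen by the section and the day in their labels, and no measured value entered the choice. All mice were wild-type C57Bl/6 bought at 6 weeks of age, and those compared here received 3% dextran sulfate sodium (DSS), a sulfated polymer that injures the colonic lining, for 6 days beginning on day 0. Mice 5, 6 and 7 were killed on day 3, midway through the exposure, and mice 8, 9 and 10 on day 6, at its end. Each gave 1 rectal sample, so no mouse was seen on both days, and the day of dissection cannot be told apart from the group. The muscle layer had been stripped from the tissue before RNA isolation, and the labels give neither sex, cage nor library batch. The mid-colon of the same 6 mice is used for comparison, and the rectum of 4 uninjured mice (day 0) only for reference levels.

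The rectal mucosa is lined by 1 layer of columnar cells: absorptive colonocytes that take up salt and water, goblet cells that make mucus, and hormone-producing enteroendocrine cells, all renewed from stem cells at the base of the crypts. DSS breaks this lining and lets luminal bacteria reach the tissue beneath. Neutrophils, short-lived phagocytes drawn from the blood by CXC chemokines, are known to enter the mucosa early in such injury, and monocytes that mature into macrophages accompany them. Colonocytes are known to draw much of their energy from the oxidation of butyrate in mitochondria.

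Values are TPM, a length-adjusted share of the mRNA in a sample scaled to the same total in each, summed per gene. A level is given in TPM, and a change as the day 6 minus day 3 difference of mean log2(TPM + 1) with its standard error (SE) and limma's Benjamini-Hochberg adjusted p. That scale understates the change of genes near 0 TPM. Rose and fell are used for genes with an adjusted p under 0.05. Between 11660 and 12063 genes reached 1 TPM in the day 3 samples and between 11912 and 12260 in the day 6 samples. The 6 samples were of gut type: the summed level of 10 gut epithelium markers was 20300 to 21920 TPM on day 3 and 16050 to 20770 TPM on day 6. Squamous epithelium markers summed to 15.7, 36.9 and 7.24 TPM in mice 5, 6 and 7 and to 19.3, 8.38 and 64.0 TPM in mice 8, 9 and 10, and skeletal muscle markers to at most 19.2 TPM. Mouse 10 stood furthest from the other mice of its day: its correlation with them across genes was 0.973 and 0.973, while mice 8 and 9 correlated at 0.986. It also had the highest levels of neutrophil, metalloproteinase and hemoglobin genes, and some of the results that lean on it are also given without it.

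On day 6 the rectum had more RNA of neutrophils, macrophages, chemokines, acute phase proteins and matrix-degrading enzymes than on day 3, and less of detoxification enzymes, fatty acid oxidation enzymes and respiratory chain subunits. Of 12182 genes tested, limma called 3336, which is 27.4%. There were 1224 higher on day 6 (10%) and 2112 lower (17.3%). These shares are the background for the counts of called genes on TPM given for each list below, with all mice in the fit. The median change over all tested genes was -0.20. After rescaling each sample by a trimmed mean of log ratios (TMM), the median was -0.00 and the split turned to 1665 higher (13.7%) and 981 lower (8.05%). All 981 of the latter had also been called lower on TPM, 1212 genes were called higher on both scales, and none was called in opposite directions. The 3 mice of day 6 did not overlap with those of day 3 in 50.2% of genes, with 14.5% wholly above and 35.7% wholly below. Most of the calls that depended on the scale were thus falls. Mitochondrially encoded mRNAs took 18.1% to 21.3% of the TPM on day 3 and 9.67% to 13.4% on day 6, lowest in mouse 10. With these genes left out and TPM rescaled, the median was -0.32 and 1099 genes were called higher and 3513 lower. Leaving out 1 mouse at a time left between 1519 calls (without mouse 6) and 3054 (without mouse 9), with 1666 without mouse 5, 1889 without mouse 7 and 2174 without mouse 10.

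**Figure D1:**
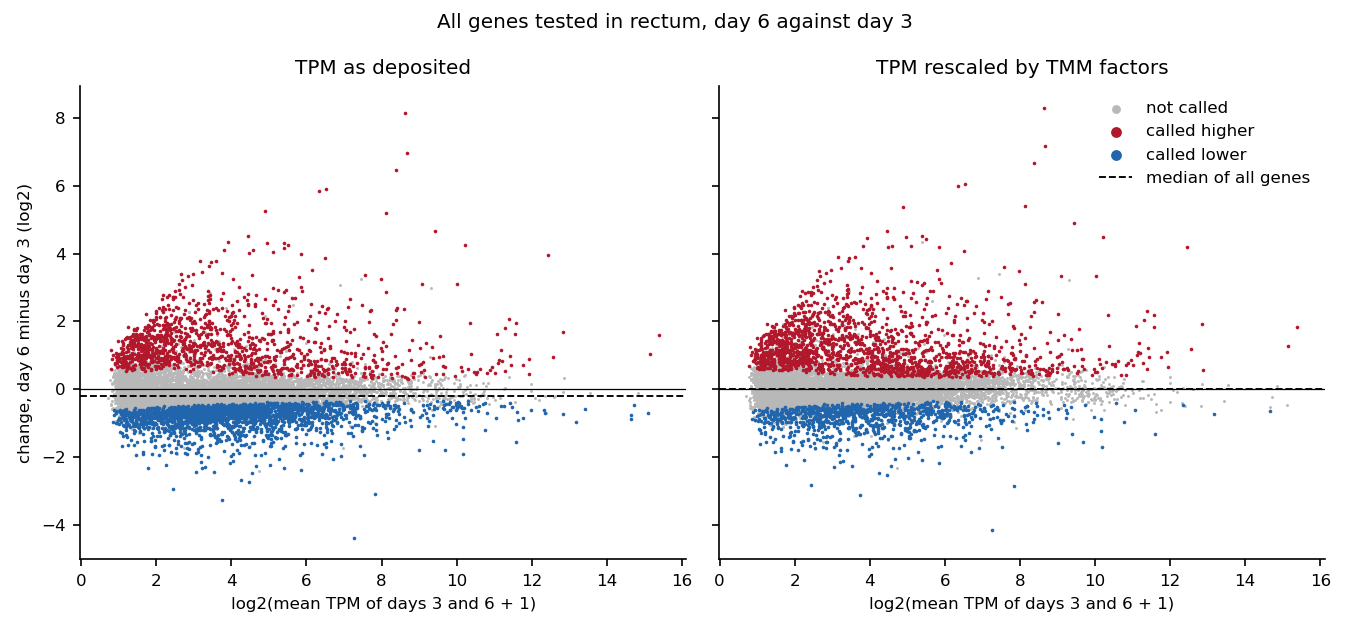
Change from day 3 to day 6 (log2 scale) against mean level (log2 TPM) for each tested gene, with TPM as deposited in the left panel and TMM-scaled values in the right; coloured points are genes called higher or lower. The bulk of genes lies below 0 on the left, with a median of -0.20, and around 0 on the right.

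**Figure D2:**
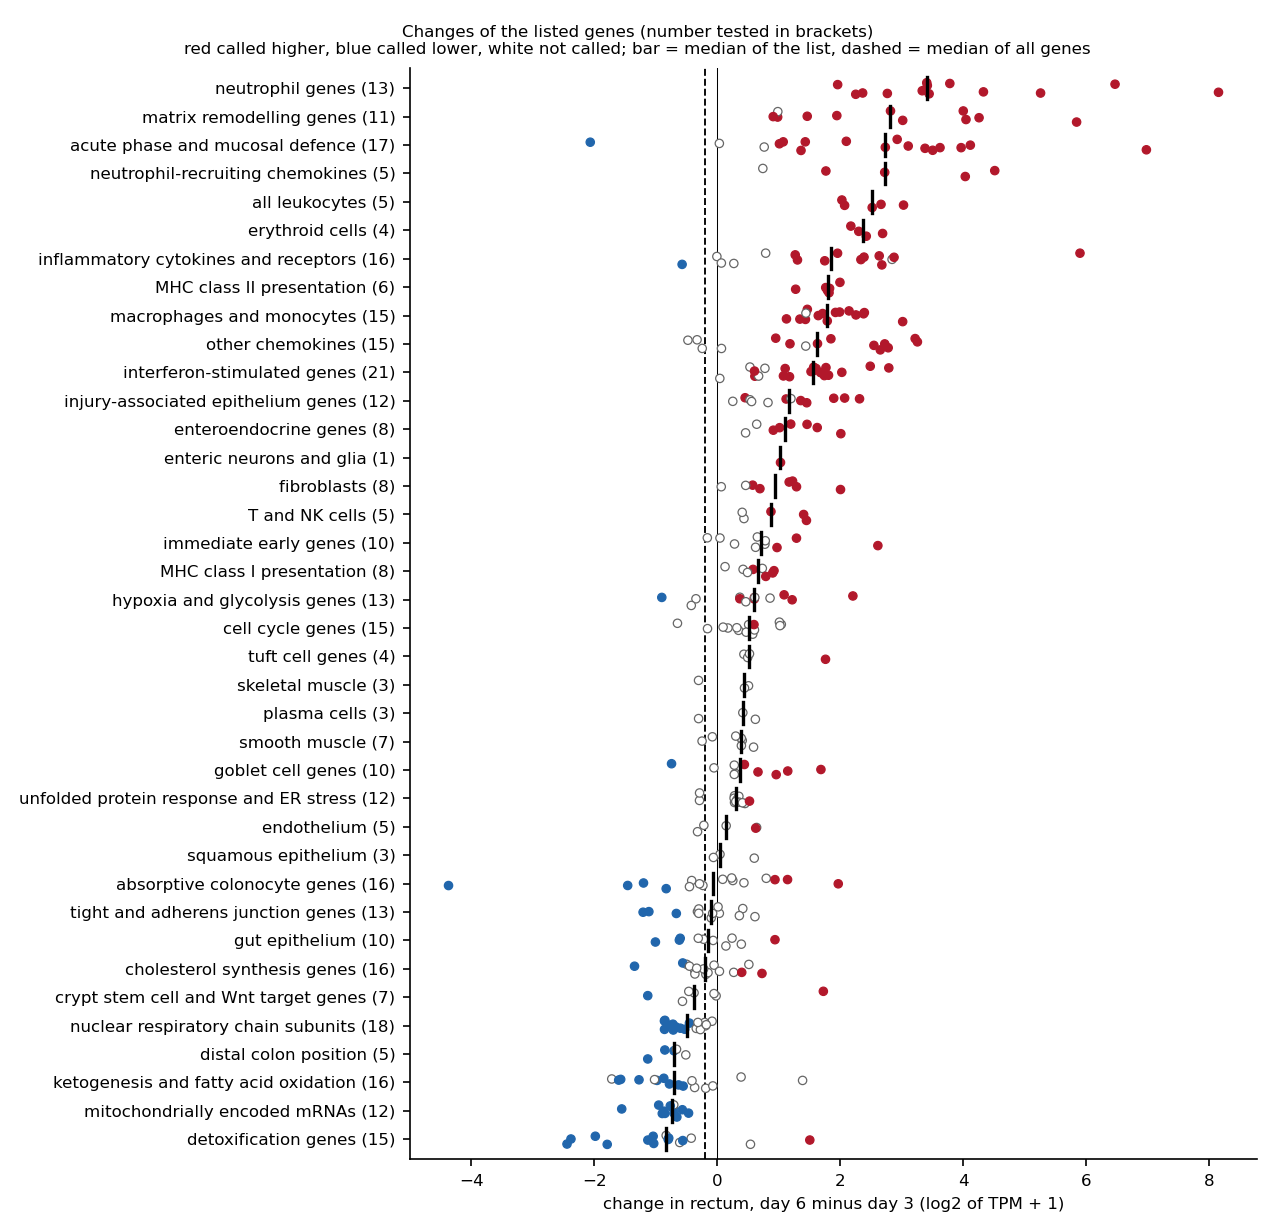
Change from day 3 to day 6 (log2 scale, TPM) of each tested gene, 1 row per gene list, with the list's median as a bar and the median of all genes as a line at -0.20. The neutrophil list, with a median of 3.42, lies furthest to the right, and the detoxification list, with a median of -0.83, furthest to the left.

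The neutrophil list had the highest median change of the lists tested. All 13 tested genes of a list of 16 rose, with a median change of 3.42 beside -0.20 for all genes and 10% of all genes called higher. A gene was tested only with at least 1 TPM in at least 3 samples. Members near 0 TPM on day 3, such as Retnlg, Il1r2 and Csf3r, entered only through their day 6 levels. Their rise was largely set by that filter, so the list's count and median are no test of the list. The same holds for such members of the lists below, among them Csf3, Il6, Osm, Cxcl3, Hp and Chil3. S100a9 and S100a8 encode the subunits of calprotectin, a metal-binding protein that fills neutrophil cytoplasm. S100a9 was at 0.833, 1.12 and 0.433 TPM in mice 5, 6 and 7 and at 194, 357 and 1816 TPM in mice 8, 9 and 10. The groups lay far apart, and mouse 10 was about an order of magnitude above mouse 8. Its change was 8.15 (SE 0.69, adjusted p = 0.001), a 992-fold ratio of mean TPM that was 347-fold without mouse 10. S100a8 went from 4.28, 2.46 and 4.29 TPM to 141, 305 and 1543 TPM, a change of 6.47 (SE 0.73, adjusted p = 0.00218) and 5.50 without mouse 10.

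Genes of neutrophil membranes and granules moved the same way. Retnlg, a secreted resistin-like protein of neutrophils, was listed at 0 in all 3 day 3 samples and at 16.5, 23.0 and 132 TPM on day 6 (adjusted p = 0.00285). Il1r2, a decoy receptor for interleukin 1, went from 0.235, 0 and 0.122 TPM to 10.2, 15.9 and 58.1 TPM (change 4.33, SE 0.53, adjusted p = 0.00275). Csf3r, the receptor for granulocyte colony-stimulating factor, went from 0.166, 0.192 and 0.297 TPM to 7.84, 9.74 and 48.3 TPM (change 3.78, SE 0.57, adjusted p = 0.00482). In each, all 3 mice of day 6 lay above all 3 of day 3, and mouse 10 was highest. Ly6g, named here after its values were seen, went from 562, 655 and 392 TPM to 1692, 1846 and 2719.5 TPM; it belongs to a family of near-identical copies, so its level is uncertain, and it held most of the list's summed TPM on day 3. The neutrophil list had 13 calls without mouse 8, 9 or 10 and 12 without mouse 5, 6 or 7, and the list's median was 2.72 without mouse 10. Bulk RNA cannot tell more cells of a type from more RNA per cell, and this holds for every cell type marker below.

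The chemokines that draw neutrophils rose with them. Of 5 tested genes of this list 4 rose and none fell, with a median of 2.72. Cxcl1, Cxcl2 and Cxcl3 are closely related ligands of the neutrophil receptor CXCR2. Cxcl2 was at 0.862, 0.237 and 0.367 TPM on day 3 and at 12.5, 35.1 and 75.8 TPM on day 6 (change 4.51, SE 0.54, adjusted p = 0.00272), and its ratio of means was 84.2-fold, or 48.7-fold without mouse 10. Cxcl1 went from 1.09, 0.365 and 0.635 TPM to 21.9, 8.22 and 95.6 TPM (change 4.03, SE 0.71, adjusted p = 0.00749). Its ratio of means was 60.3-fold, or 21.7-fold without mouse 10. Cxcl3 was lower than both, at 0.583, 0 and 0.0650 TPM and then 2.73, 6.38 and 16.6 TPM (change 2.72, adjusted p = 0.00852). Csf3, the growth factor that drives neutrophil production, was listed at 0 in every day 3 sample and at 1.22, 1.10 and 7.45 TPM on day 6 (adjusted p = 0.0317). Csf3 lost its call without mouse 5, 6 or 7 (adjusted p 0.0787 to 0.083). Cxcl5, the fifth tested gene, was already present on day 3 at 24.1, 11.6 and 11.5 TPM and was at 24.2, 13.2 and 50.7 TPM on day 6, with overlapping groups (change 0.74, adjusted p = 0.237).

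The promoters of the 3 CXCR2 ligands are shown because these genes moved together and NF-kappa B is the textbook regulator of this family. Each line holds the 200 bases before the start of the gene, 5′ to 3′ on the gene's strand, from RefSeq on GRCm38.p6. Capitals mark matches to the kappa B motif, GGG followed after any 2 bases by TTTCC, on either strand. Cxcl1 is at chr5:90891045-90891244, Cxcl2 at chr5:90903699-90903898 and Cxcl3 at chr5:90785901-90786100, all on the plus strand.
Cxcl1: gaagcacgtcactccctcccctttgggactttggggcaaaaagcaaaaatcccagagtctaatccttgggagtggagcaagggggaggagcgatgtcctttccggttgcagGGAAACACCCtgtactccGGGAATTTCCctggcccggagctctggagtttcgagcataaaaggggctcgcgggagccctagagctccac
Cxcl2: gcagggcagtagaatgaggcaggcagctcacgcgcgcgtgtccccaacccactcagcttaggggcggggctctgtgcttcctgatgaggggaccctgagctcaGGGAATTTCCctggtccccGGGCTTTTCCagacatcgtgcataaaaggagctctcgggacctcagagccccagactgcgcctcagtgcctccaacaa
Cxcl3: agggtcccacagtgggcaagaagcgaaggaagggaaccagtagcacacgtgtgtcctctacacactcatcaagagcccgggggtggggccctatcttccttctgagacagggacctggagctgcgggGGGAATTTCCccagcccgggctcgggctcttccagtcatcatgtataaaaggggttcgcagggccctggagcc
In the window from 250 bases before to 50 after the start, 3 of the 4 genes of this list with a RefSeq promoter entry held the motif. It was in 1.62% of all 27025 promoters of that length, in 1.74% of those of tested genes, in 3.72% of those of genes called higher (33 of 886) and in 1.54% of those of genes called lower (25 of 1620). A match describes the letters in the window only.

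Other chemokines rose in 10 of 15 tested genes, beside 10% of all genes, with none lower and a median of 1.63. Ccl8, which attracts monocytes and T cells, was the most abundant of those named on day 6, at 42.7, 41.6 and 49.8 TPM on day 3 and 454, 277 and 648 TPM on day 6 (change 3.25, SE 0.27, adjusted p = 0.001). The macrophage inflammatory proteins Ccl4 and Ccl3 rose by 3.22 and 2.72. The monocyte attractants Ccl2 and Ccl7 rose by 2.78 (SE 0.54, adjusted p = 0.0106) and 2.65 (SE 0.47, adjusted p = 0.00787). Cx3cl1 and Ccl28, chemokines made by the epithelium, were among the most abundant members that did not pass. Cx3cl1 was at 45.6, 53.2 and 53.6 TPM and 39.2, 47.6 and 34.8 TPM, and Ccl28 at 52.8, 46.3 and 44.4 TPM and 42.6, 36.6 and 25.2 TPM. With every rectal day in the fit, 6 members were called higher, and Ccl3 and Ccl4 were not among them.

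Of 16 tested cytokines and cytokine receptors 10 rose and 1 fell, beside 10% and 17.3% of all genes, with a median of 1.85. Il1b, the precursor of interleukin 1 beta, was at 3.41, 0.507 and 0.742 TPM on day 3 and at 57.0, 111 and 377 TPM on day 6, with no overlap. Its change was 5.90 (SE 0.66, adjusted p = 0.00216) and 5.15 without mouse 10. Tnf, which encodes tumor necrosis factor, rose more evenly, from 1.68, 1.16 and 0.654 TPM to 12.2, 8.47 and 17.3 TPM (change 2.63, SE 0.28, adjusted p = 0.002). Il6, the inducer of the hepatic acute phase response, was at 0.0751, 0 and 0 TPM on day 3 and at 5.54, 1.07 and 19.7 TPM on day 6 (adjusted p = 0.0251). Osm, oncostatin M of the same cytokine family, went from 0.125, 0.0302 and 0.0973 TPM to 1.45, 4.12 and 13.5 TPM (change 2.39, adjusted p = 0.0174). Socs3, a feedback inhibitor of signaling by that family, went from 13.9, 3.04 and 6.98 TPM to 29.1, 39.6 and 154 TPM (change 2.87, adjusted p = 0.0162). Il6 was not called without mouse 5, 6, 7 or 8 (adjusted p 0.0576 to 0.0727), Osm without mouse 6 or 7 (adjusted p 0.0526 to 0.055), nor Socs3 without mouse 6 or 7 (adjusted p 0.0514 to 0.0537). The member that fell was Il18, an epithelial cytokine named here after its values were seen, from 426, 374 and 347 TPM to 256, 277 and 238 TPM (change -0.57, adjusted p = 0.013). Il18 was no longer called without mouse 5 (adjusted p 0.0515) and on TMM-scaled values (adjusted p 0.123). Without mouse 6 or mouse 7 the list had 6 genes higher. Il1rn, the interleukin 1 receptor antagonist, was already at 198, 164 and 137 TPM on day 3 and was at 186, 198 and 213 TPM on day 6 (change 0.27, adjusted p = 0.188).

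Leukocyte markers rose in parallel. All 5 genes of a pan-leukocyte list rose, with a median of 2.52, and their summed level went from 50.8, 48.5 and 73.8 TPM to 315, 257 and 702 TPM. Ptprc, which encodes CD45, went from 0.933, 0.921 and 1.21 TPM to 6.02, 4.93 and 13.6 TPM (change 2.07, SE 0.32, adjusted p = 0.00526). Tyrobp, an adaptor of myeloid receptors, went from 30.4, 31.7 and 42.1 TPM to 172, 152 and 425 TPM (change 2.66, SE 0.35, adjusted p = 0.00357). Mouse 10 was highest for both.

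Macrophage and monocyte genes rose in 14 of 15 tested members, with a median of 1.79. Their summed level was 304, 274 and 379 TPM on day 3 and 1192, 955 and 2239 TPM on day 6. The complement subunits C1qa, C1qb and C1qc, made by tissue macrophages, rose by 2.38, 2.39 and 2.26. C1qa was at 25.1, 25.4 and 32.2 TPM and then 126, 102 and 245 TPM (SE 0.29, adjusted p = 0.00283). Chil3, a chitinase-like protein of inflammatory monocytes, was at 0, 0.144 and 0.223 TPM on day 3 and at 4.01, 4.44 and 26.1 TPM on day 6 (change 3.01, SE 0.58, adjusted p = 0.0098). Spp1, osteopontin, did not pass, at 1.62, 0.161 and 0.160 TPM and 1.27, 2.89 and 7.02 TPM (adjusted p = 0.0571). Without mouse 6 the list had 9 genes higher.

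T and NK cell genes stayed at low levels. Of 5 tested, 3 rose and none fell, and the summed list was at 4.58, 3.29 and 8.43 TPM on day 3 and 19.1, 11.2 and 15.7 TPM on day 6. Klrd1, an NK cell receptor subunit, went from 0.742, 0.208 and 0.493 TPM to 4.46, 2.13 and 2.76 TPM (change 1.45, SE 0.26, adjusted p = 0.00763). Without mouse 5, 6 or 8 only 1 of the list was called. The 4 hemoglobin genes of the erythroid list all rose, with a median of 2.36. The sum of all 5 genes of that list was 71.4, 94.3 and 184 TPM on day 3 and 243, 429 and 1732 TPM on day 6. Mouse 10 held most of it. None of the 4 was called without mouse 5 or mouse 6, and 1 without mouse 7. Without mouse 10 all 4 were called, with a median of 1.55. Whether blood in the tissue had a part in the leukocyte rises was not tested.

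**Figure D3:**
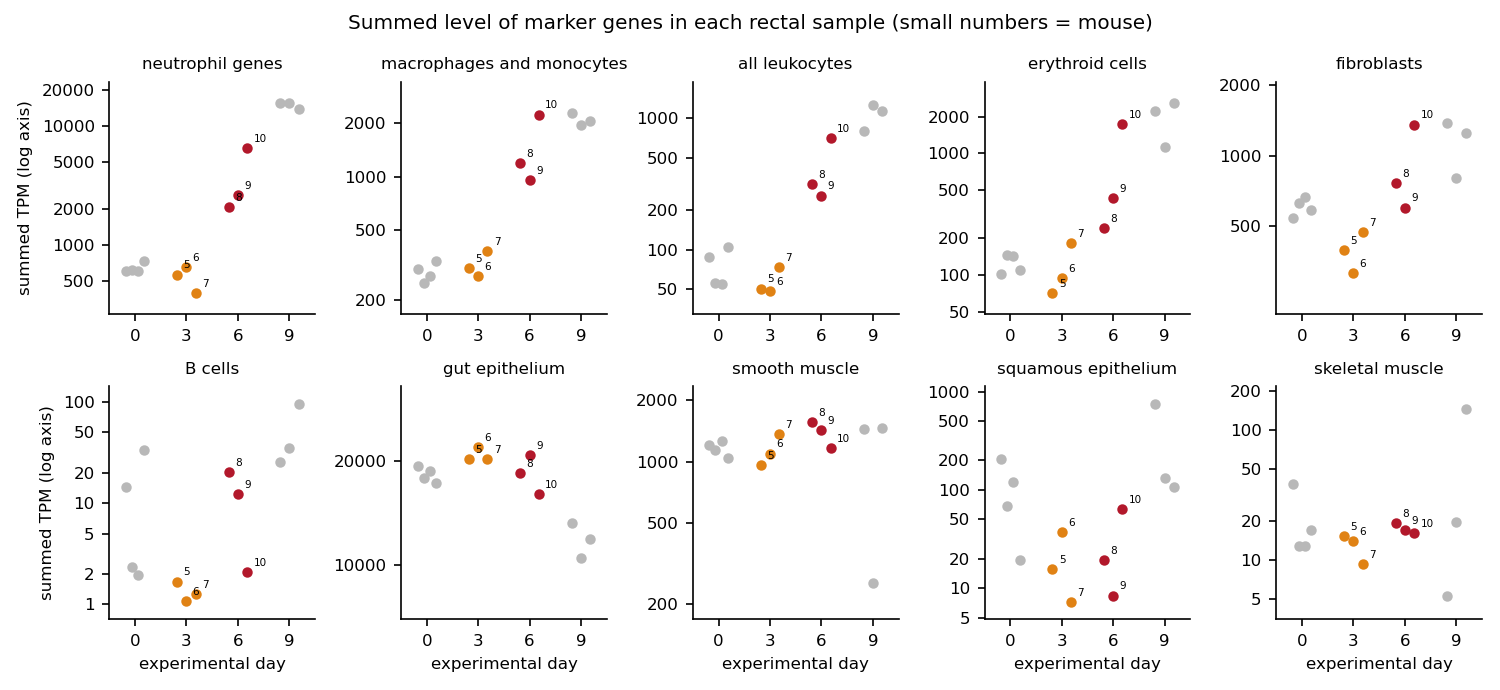
Summed level (TPM, log axis) of 10 cell type marker lists in each rectal sample on days 0, 3, 6 and 9, 1 panel per list and 1 point per mouse, with the points of days 3 and 6 coloured and numbered by mouse. The pan-leukocyte sum lies between 48.5 and 73.8 TPM on day 3 and between 257 and 702 TPM on day 6. The gut epithelium sum lies between 20300 and 21920 TPM on day 3 and between 16050 and 20770 TPM on day 6.

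Genes of antigen presentation to CD4 T cells rose as a group. All 6 tested genes of MHC class II rose, with a median of 1.81, and 5 of them were called without mouse 5 or mouse 6. H2-Aa, a class II alpha chain, was at 69.5, 57.7 and 119 TPM on day 3 and 353, 224 and 392 TPM on day 6 (change 2.00, SE 0.29, adjusted p = 0.00449). Cd74, the invariant chain that escorts class II molecules, went from 46.7, 42.3 and 75.3 TPM to 203, 131 and 261 TPM (change 1.83, SE 0.28, adjusted p = 0.00528). Macrophages carry class II molecules themselves, and the rise of macrophage markers over the same interval is given above; its part in this was not tested. MHC class I genes moved less: 4 of 8 rose, beside 10% of all genes, with a median of 0.66. B2m, the class I light chain, went from 458, 422 and 490.3 TPM to 1016, 692 and 922 TPM (change 0.92, SE 0.15, adjusted p = 0.00634), and the immunoproteasome subunit Psmb8 rose by 0.90 (SE 0.14, adjusted p = 0.00528). With every rectal day in the fit, 3 class II genes and none of class I were called.

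Interferon-stimulated genes rose in 17 of 21 tested members, beside 10% of all genes, with none lower and a median of 1.56. The most changed members lay close together across the 3 mice of day 6. Isg15, a ubiquitin-like antiviral protein, was at 5.31, 4.17 and 6.66 TPM on day 3 and 37.7, 41.2 and 49.6 TPM on day 6 (change 2.79, SE 0.19, adjusted p = 0.000807). Ifit1, which binds viral RNA, went from 2.50, 5.06 and 4.35 TPM to 27.7, 32.3 and 20.0 TPM (change 2.49, SE 0.25, adjusted p = 0.00189), highest in mouse 9 and lowest in mouse 10. Zbp1, a sensor of Z-form nucleic acids, went from between 46.0 and 54.0 TPM to 226, 164 and 237 TPM (change 2.03, SE 0.16, adjusted p = 0.000861). The guanylate-binding protein Gbp2 and Ifit3 rose by 1.77 (SE 0.28, adjusted p = 0.00576) and 1.81 (SE 0.27, adjusted p = 0.00503). With every rectal day in the fit, 5 of the list were called, and Ifit3 and Gbp2 were not among them.

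The promoters of Isg15, Ifit1 and Ifit3 are shown because these genes rose together and the interferon-stimulated response element is the textbook binding site of the interferon-activated factor ISGF3. Each line holds the 200 bases before the gene's start, 5′ to 3′ on its own strand (RefSeq, GRCm38.p6), with matches to the element, GAAA repeated after any 2 bases, on either strand in capitals. Isg15 is at chr4:156200819-156201018 on the minus strand, Ifit1 at chr19:34640689-34640888 and Ifit3 at chr19:34583329-34583528 on the plus strand.
Isg15: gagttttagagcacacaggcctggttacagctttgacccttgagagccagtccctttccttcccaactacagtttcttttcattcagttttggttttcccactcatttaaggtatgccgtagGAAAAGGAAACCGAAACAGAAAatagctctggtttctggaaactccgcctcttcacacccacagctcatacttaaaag
Ifit1: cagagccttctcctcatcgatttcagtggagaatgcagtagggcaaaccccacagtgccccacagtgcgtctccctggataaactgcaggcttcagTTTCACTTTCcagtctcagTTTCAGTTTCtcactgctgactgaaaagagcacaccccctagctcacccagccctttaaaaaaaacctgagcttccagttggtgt
Ifit3: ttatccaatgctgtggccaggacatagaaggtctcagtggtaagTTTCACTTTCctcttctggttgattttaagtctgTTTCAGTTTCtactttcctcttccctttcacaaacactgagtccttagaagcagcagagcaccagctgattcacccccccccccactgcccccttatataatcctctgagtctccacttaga
The capitals in Isg15 are 3 overlapping matches. Of 16 interferon-stimulated genes with a promoter entry 10 held the motif in the window of 250 bases before to 50 after the start. It was in 3.49% of all promoters, in 3.25% of those of tested genes, in 8.35% of those of genes called higher (74 of 886) and in 2.53% of those of genes called lower (41 of 1620).

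Acute phase and mucosal defence genes rose in 14 of 17 tested members, with 1 lower and a median of 2.73. Saa1 and Saa3 are serum amyloid A proteins, lipid-binding acute phase reactants. Saa1 was the most abundant, at 656, 749 and 547 TPM on day 3 and 7865, 8943 and 14621 TPM on day 6 (change 3.96, SE 0.23, adjusted p = 0.000807). Its range in the uninjured rectum was 1496 to 2856 TPM, so the day 3 samples lay below that range and the day 6 samples above it. Saa3 went from 4.84, 3.85 and 1.19 TPM to 282, 227 and 1922 TPM (change 6.98, SE 0.75, adjusted p = 0.002), with a ratio of means of 246-fold, or 77.2-fold without mouse 10. Saa1 and its neighbour Saa2 are near-identical copies, so reads may be split between them.

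Other defence genes included Hp, haptoglobin, which binds free hemoglobin, with 0.113, 0.0571 and 0.0884 TPM on day 3 and 7.76, 11.7 and 58.8 TPM on day 6 (change 4.11, SE 0.61, adjusted p = 0.00465). Retnlb, a bactericidal protein of goblet cells, went from 0.149, 0.452 and 1.17 TPM to 13.0, 16.5 and 26.6 TPM (change 3.62, SE 0.31, adjusted p = 0.00106). Duoxa2, the maturation factor of the epithelial hydrogen peroxide-producing oxidase DUOX2, went from 13.3, 12.6 and 5.17 TPM to 137, 65.7 and 189 TPM (change 3.50, SE 0.43, adjusted p = 0.00277). Wfdc18, a small whey acidic protein-type gene, was among the 10 largest rises of all, from 25.1, 17.5 and 5.20 TPM to 673, 380.3 and 568 TPM (change 5.19, SE 0.48, adjusted p = 0.00144), and here mouse 8 was highest. Reg4, a secreted lectin named here after its values were seen, was the member that fell, from 51.5, 53.2 and 72.5 TPM to 32.6, 8.21 and 8.27 TPM (change -2.06, adjusted p = 0.0159). Reg4 lost its call without mouse 7 (adjusted p 0.0576). Ang4, an antimicrobial ribonuclease, was at 0.866, 0.581 and 3.94 TPM and 1.66, 1.86 and 8.41 TPM, with overlapping groups (adjusted p = 0.32).

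Genes that degrade and rebuild the extracellular matrix rose in 10 of 11 tested members, with a median of 2.82. Mmp3, stromelysin 1, was at 1.44, 0.670 and 0.695 TPM on day 3 and 74.5, 47.3 and 356 TPM on day 6 (change 5.84, SE 0.63, adjusted p = 0.002), and its change was 4.99 without mouse 10. Timp1, an inhibitor of these proteases, went from 1.77, 3.01 and 2.25 TPM to 44.4, 28.5 and 119.9 TPM (change 4.04, SE 0.45, adjusted p = 0.00216). Mmp13, a collagenase, and Mmp10, stromelysin 2, were an order of magnitude higher in mouse 10 than in the other mice of day 6. Mmp13 was at 1.97, 0.426 and 1.24 TPM and then 22.6, 11.2 and 228 TPM (change 4.26, SE 0.92, adjusted p = 0.0148), and Mmp10 at 3.43, 0.887 and 1.77 TPM and then 22.3, 12.6 and 299 TPM (change 4.00, SE 1.00, adjusted p = 0.0228). Mmp13 was not called without mouse 6 (adjusted p 0.0528), nor Mmp10 without mouse 6 or 7 (adjusted p 0.0688 to 0.0734). The list had 4, 2 and 6 genes higher without mouse 5, 6 or 7. Without mouse 10 it had 7 higher, with a median of 1.95. Fibroblast genes rose in 6 of 8 tested members, with a median of 0.93. Pdpn, podoplanin of activated fibroblasts, went from 2.73, 2.45 and 3.44 TPM to 11.3, 9.40 and 28.0 TPM (change 2.00, SE 0.36, adjusted p = 0.00768), and the collagen gene Col3a1 from 139, 118 and 189.8 TPM to 333, 254 and 477 TPM (change 1.23, SE 0.25, adjusted p = 0.0117). The fibroblast list had 2 genes higher without mouse 5, 6 or 8 and 3 without mouse 10.

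Among epithelial genes, some of the most abundant transcripts of the tissue moved in opposite directions, also within 1 list. Of 16 absorptive colonocyte genes 3 rose and 4 fell, beside 10% of all genes called higher and 17.3% lower. After TMM scaling 3 were higher and 2 lower, beside 13.7% and 8.05% of all genes. The list's median was -0.07 (0.16 after TMM scaling). Car4, a membrane carbonic anhydrase of surface colonocytes, was at 1018, 1414 and 1301 TPM on day 3 and 4939, 4199.9 and 5414 TPM on day 6 (change 1.97, SE 0.16, adjusted p = 0.000882). In the uninjured rectum it ranged from 2731 to 3297 TPM, above every day 3 and below every day 6 sample. Ceacam20, a brush border adhesion protein, went from 74.5, 82.3 and 66.7 TPM to 194, 168 and 138 TPM (change 1.14, SE 0.15, adjusted p = 0.00346).

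The opposite course was taken by S100g, the vitamin D-dependent calcium-binding protein calbindin-D9k, which showed the largest fall that met the naming rule. It was at 177, 237 and 465 TPM in mice 5, 6 and 7 and at 16.6, 7.25 and 14.5 TPM in mice 8, 9 and 10 (change -4.37, SE 0.38, adjusted p = 0.00111), beside 170.2 to 599 TPM in the uninjured rectum. Car2, the cytosolic carbonic anhydrase, fell from 1566, 1712 and 1726 TPM to 504, 889.6 and 500.2 TPM (change -1.45, SE 0.21, adjusted p = 0.00462). Slc26a2, a sulfate transporter, went from 258, 303 and 376 TPM to 129, 222 and 84.0 TPM (change -1.20, adjusted p = 0.0272). Slc26a2 was no longer called without mouse 5, 6, 7 or 8 (adjusted p 0.0516 to 0.0904) and on TMM-scaled values (adjusted p 0.0529). Car1, the most abundant of the carbonic anhydrases on day 3, was at 7455, 6655 and 5965 TPM and 6694, 5247 and 5205 TPM (change -0.23, adjusted p = 0.247). Without mouse 6, 7 or 8 the list had 2 genes lower, and without mouse 8 it had 5 higher.

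Goblet cell genes rose in 5 of 10 tested members and 1 fell, beside 10% and 17.3% of all genes, with a median of 0.37. Zg16, a lectin that coats Gram-positive bacteria in mucus, was at 3502, 3883 and 3051 TPM on day 3 and 11753, 10421 and 11296 TPM on day 6 (change 1.69, SE 0.13, adjusted p = 0.000807). Like Car4 and Saa1, it was below the uninjured range of 5099.6 to 6871 TPM on day 3 and above it on day 6. Spink4, a secreted protease inhibitor, went from 1662, 1527 and 1109 TPM to 2548, 3183 and 3775 TPM (change 1.15, SE 0.19, adjusted p = 0.00651), and Tff3, a trefoil peptide, from 4477, 4893 and 3018 TPM to 6506, 7876 and 9485 TPM (change 0.96, SE 0.21, adjusted p = 0.0151). Muc2, the gel-forming mucin of the colon, rose by 0.66 (SE 0.12, adjusted p = 0.00834). Atoh1, the transcription factor that commits cells to the secretory lineage, was the member that fell, from 11.0, 11.5 and 14.1 TPM to 8.19, 7.08 and 5.54 TPM (change -0.74, SE 0.18, adjusted p = 0.0215). Atoh1 lost its call without mouse 5, 6 or 7 (adjusted p 0.0511 to 0.0693).

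Enteroendocrine genes rose in 6 of 8 tested members, beside 10% of all genes, with none lower and a median of 1.11. Gcg, the precursor of glucagon-like peptides, was at 40.2, 30.4 and 57.7 TPM on day 3 and 169.5, 133 and 216 TPM on day 6 (change 2.01, SE 0.25, adjusted p = 0.00285), beside 11.4 to 13.9 TPM in the uninjured rectum. Insl5, a relaxin family peptide of the distal gut, went from 107, 96.0 and 116 TPM to 303, 252 and 467 TPM (change 1.63, SE 0.21, adjusted p = 0.00346), and Pyy, peptide YY, from 248, 229 and 221 TPM to 879.6, 491 and 610.1 TPM (change 1.46, SE 0.20, adjusted p = 0.0038). The granins Chgb and Chga, proteins of hormone granules, rose by 1.20 (adjusted p = 0.0111) and 1.02 (adjusted p = 0.017). No call remained for Chga without mouse 5 or 6 (adjusted p 0.0569 to 0.0571). Tac1 (substance P) was at 179, 149 and 64.1 TPM and 255, 176 and 147 TPM, and Tph1, the serotonin-synthesizing enzyme, at 4.14, 4.72 and 3.92 TPM and 10.5, 4.39 and 5.09 TPM, and neither passed (adjusted p = 0.207 and 0.234). Of 4 tested tuft cell genes 1 was called higher and none lower, with a median of 0.51.

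**Figure D4:**
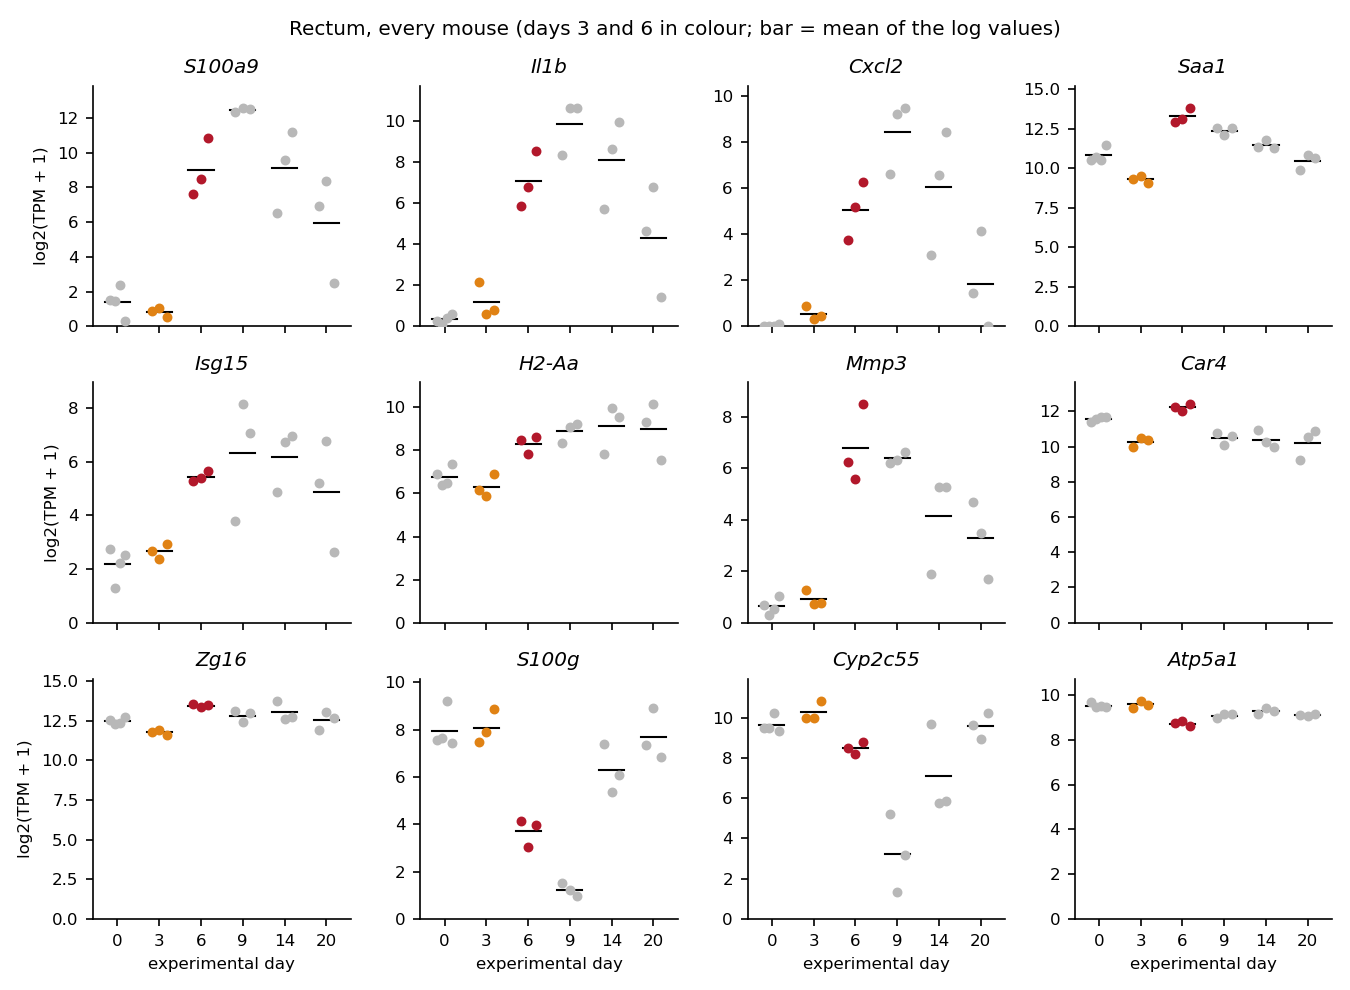
Level, as log2(TPM + 1), of 12 genes in every rectal sample against experimental day, 1 panel per gene, 1 point per mouse and a bar at the mean of the log values, with the points of days 3 and 6 coloured. Car4 and Zg16 lie below their day 0 range on day 3 and above it on day 6, S100g is at 7.25 to 16.6 TPM on day 6, and mouse 10 sets the top of S100a9, Il1b, Cxcl2 and Mmp3 on day 6.

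Crypt genes showed no common direction. Of 7 tested stem cell and Wnt target genes 1 rose and 1 fell, which is near the shares of all genes (10% higher and 17.3% lower). Sox9, a transcription factor of crypt progenitors, fell from 11.6, 9.42 and 11.4 TPM to 3.80, 4.87 and 4.53 TPM (change -1.13, SE 0.16, adjusted p = 0.00449). Cd44, an adhesion receptor that leukocytes also carry, went from 1.94, 1.59 and 3.41 TPM to 7.24, 6.16 and 19.6 TPM (change 1.73, SE 0.40, adjusted p = 0.018). Cd44 was no longer called without mouse 5 or 6 (adjusted p 0.0572 to 0.0623). Myb, a transcription factor needed in crypt progenitors, was among the 10 largest falls, from 16.7, 10.8 and 27.9 TPM to 4.48, 2.60 and 0.889 TPM (change -2.44, SE 0.43, adjusted p = 0.00739).

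Of 15 tested cell cycle genes 1 rose, near the 10% of all genes called higher, with a list median of 0.51. Cdk1, the mitotic kinase, was at 3.95, 5.31 and 2.13 TPM on day 3 and 20.8, 4.12 and 6.67 TPM on day 6 (adjusted p = 0.145), beside 20.1 to 29.8 TPM in the uninjured rectum. Mouse 8 was back within that range, and mice 9 and 10 were among the day 3 values or just above them. Without mouse 8 the list's median was -0.07, and without mouse 9 there were 3 genes higher. The gene called was Pcna, the DNA polymerase clamp, from 72.2, 64.0 and 67.9 TPM to 118, 83.4 and 113 TPM (change 0.60, adjusted p = 0.0233). Pcna lost its call without mouse 5, 6, 7, 8 or 10 (adjusted p 0.0556 to 0.0796).

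Genes known from injured, fetal-like epithelium rose in 7 of 12 tested members, with a median of 1.16. Ly6a, which encodes Sca-1, was at 1195, 1127 and 806 TPM on day 3 and 3984, 4081 and 4972 TPM on day 6 (change 2.07, SE 0.17, adjusted p = 0.001). Ereg, epiregulin of the EGF family, went from 1.85, 2.80 and 1.07 TPM to 11.4, 5.18 and 34.8 TPM (change 2.31, SE 0.56, adjusted p = 0.0209). No call remained for Ereg without mouse 5 or 7 (adjusted p 0.0583 to 0.0724). Areg, amphiregulin of the same family, had been at 54.0, 50.9 and 19.5 TPM on day 3 and was at 51.1, 72.6 and 84.0 TPM on day 6, with overlapping groups (adjusted p = 0.121). The list had 3 genes higher without mouse 5 and 4 without mouse 6, 7 or 8.

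Falls were frequent among metabolic genes. Of 15 detoxification genes 10 fell and 1 rose, with a median of -0.83, beside 17.3% of all genes called lower. Sult1a1, which sulfates phenols, was at 95.0, 82.9 and 105 TPM on day 3 and 18.6, 28.3 and 9.61 TPM on day 6 (change -2.38, SE 0.32, adjusted p = 0.0038). Cyp2c55, an abundant colonic cytochrome P450, fell from 1001, 1023 and 1837 TPM to 356, 294 and 434 TPM (change -1.79, SE 0.25, adjusted p = 0.00384), and Maob, a monoamine oxidase, from 13.1, 15.4 and 18.4 TPM to 3.39, 4.24 and 2.17 TPM (change -1.98, SE 0.22, adjusted p = 0.00218). Gstm3, a glutathione transferase, fell by 2.44 on the same scale (SE 0.32, adjusted p = 0.00346). With every rectal day in the fit the list had 7 lower, and Cyp2c55 was no longer called (adjusted p = 0.137). The member that rose was the carboxylesterase Ces1g, from 0.0849, 0.114 and 0.288 TPM to 2.51, 1.40 and 3.24 TPM.

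Further enzymes stood among the 10 largest falls. Cyp2c68, another cytochrome P450, was at 378, 366 and 462 TPM on day 3 and 44.2, 85.1 and 26.0 TPM on day 6 (change -3.09, SE 0.36, adjusted p = 0.00234), and Cyp2f2 went from 18.6, 21.6 and 28.9 TPM to 1.95, 2.57 and 0.434 TPM (change -3.26, SE 0.34, adjusted p = 0.00189). Cyp2c68 belongs to a family of near-identical copies, so its own level is uncertain. Pck1, the first committed enzyme of gluconeogenesis, fell from 57.5, 54.6 and 94.1 TPM to 12.7, 20.1 and 7.77 TPM (change -2.31, SE 0.33, adjusted p = 0.00405), the ceramidase Acer1 by 2.32 and the aldehyde dehydrogenase Aldh1a7 by 2.29. In these genes mouse 10 was lowest, mouse 9 highest among the day 6 samples, and no day 6 sample reached a day 3 value.

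Fatty acid oxidation and ketogenesis genes fell in 8 of 16 tested members, beside 17.3% of all genes, with none higher and a median of -0.70. After TMM scaling the median was -0.47, with 6 lower and 1 higher, beside 8.05% and 13.7% of all genes. Slc16a1, the monocarboxylate transporter that imports butyrate, fell from 163, 169 and 204 TPM to 71.4, 84.1 and 32.5 TPM (change -1.60, SE 0.31, adjusted p = 0.0105). Acaa2, the thiolase of the mitochondrial beta-oxidation spiral, fell from 115, 140.4 and 154 TPM to 41.4, 55.1 and 40.1 TPM (change -1.57, SE 0.16, adjusted p = 0.00196), and the ketone body dehydrogenase Bdh1 and the acyl-CoA dehydrogenase Acadm fell by 1.27 and 0.98. Hadha, the alpha subunit of the trifunctional protein, was at 108, 115 and 163 TPM and 95.5, 99.3 and 91.1 TPM (adjusted p = 0.0898). Without mouse 6 the list had 5 genes lower.

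Nuclear genes of the respiratory chain had a smaller median change: 10 of 18 were lower and none higher, with a median of -0.49 (-0.26 and 6 lower after TMM scaling). Of all genes, 17.3% were called lower on TPM and 8.05% after TMM scaling. Atp5a1, the alpha subunit of ATP synthase, was at 682, 862 and 758 TPM on day 3 and 429, 455 and 388 TPM on day 6 (change -0.85, SE 0.12, adjusted p = 0.00449). Sdha of complex II and Cyc1 of complex III fell by 0.86 and 0.86, and Cox4i1 of complex IV was at 1507, 1703 and 1779.5 TPM and 1359, 1403 and 1358 TPM (adjusted p = 0.0884). Of 12 mitochondrially encoded mRNAs 11 were called lower on TPM, with a median of -0.74, and 3 after TMM scaling (-0.51). mt-Atp6 was at 36136, 29364 and 34286 TPM and 19878, 19011 and 15808 TPM (change -0.87, SE 0.15, adjusted p = 0.00651). Without mouse 5, 6 or 7 there were 2, 6 and 4 lower. Over the same interval the leukocyte sum rose, and its part in the lower share of epithelial metabolic genes was not tested. The summed gut epithelium markers were at 20310, 21920 and 20300 TPM in mice 5, 6 and 7. In mice 8, 9 and 10 they were at 18490, 20770 and 16050 TPM. Mice 8 and 10 thus lay below every day 3 sample, and mouse 9 lay among them.

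The change between the days was then compared between the rectum and the mid-colon of the same 6 mice, as the difference of their log2 changes. Only 1 of 12763 genes, 0.00784%, was called in the fit without the mouse as a term, and 828 (6.49%) had an unadjusted p under 0.05, beside 1664 with the mouse as a block. The gene called was Gm7332 (ENSMUSG00000080875), an unnamed locus named here after its values were seen, which has no proper symbol. It was between 1.07 and 7.63 TPM in the rectum on day 3 and listed at 0 in all 3 rectal samples of day 6, and in mid-colon it went from at most 0.226 TPM to between 6.2 and 6.87 TPM. The difference was -5.12 (SE 0.56, adjusted p = 0.0105). Gm7332 lost this call without mouse 5, 7, 8 or 9 (adjusted p = 0.327, 0.0559, 0.056 and 0.202), without a filter on low values (0.0684) and with all days in the fit (0.999, all limma). Leaving out 1 mouse gave no call of any gene without mouse 5, 7 or 9, 1 without mouse 6, 3 without mouse 8 and 5 without mouse 10. With the mouse as a replicate block, which compares sections within each mouse, 4 genes were called (0.0313%), Gm7332 with a smaller and Cxcl2, Ccl4 and Hp (0.0235%) with a larger rectal change. Cxcl2 was at 0, 0.116 and 0 TPM in the mid-colon on day 3 and 0.415, 1.86 and 6.95 TPM on day 6. Its rectal change exceeded the mid-colonic one by 2.90 on the log2(TPM + 1) scale (adjusted p = 0.0139, with the block). Its mean went from 0.488 to 41.1 TPM in the rectum and from 0.0388 to 3.07 TPM in the mid-colon. That scale understates changes near 0 TPM, so 2.90 is not a difference between the fold changes of mean TPM, which were of similar size in both sections. Ccl4 was at 0.150, 0.243 and 0 TPM and 0.145, 1.08 and 1.23 TPM in the mid-colon, a difference of 2.59 (adjusted p = 0.0139, with the block). Hp was at 0.208, 0.0420 and 0 TPM and 0.801, 0.972 and 4.69 TPM there, a difference of 2.78 (adjusted p = 0.038, with the block).

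The lists differed in how their changes compared between the sections. The median difference of changes was 0.17 over all genes, and 76.9% of genes were positive. After TMM scaling these values were -0.01 and 48.3%. The neutrophil list had a median difference of 2.28 with 12 of 13 positive, and the matrix list 1.92 with 11 of 11. S100a9, for example, was at 0, 0.412 and 0.251 TPM and then 27.8, 16.8 and 92.7 TPM in the mid-colon, with a difference of 3.24 (adjusted p = 0.688, no block). Interferon-stimulated genes had a median difference of 0.65, MHC class II genes 0.53 and enteroendocrine genes 0.95. Acute phase and mucosal defence genes were at 0.14 with 9 of 17 positive (-0.08 with 7 of 17 after TMM scaling), below the all-gene values. So were injury-associated epithelium genes, at -0.03 with 5 of 12. MHC class I genes, at 0.16 with 6 of 8, lay close to the all-gene values. Among metabolic lists that fell in the rectum, the median difference was -0.03 for detoxification, -0.01 for nuclear respiratory chain subunits and -0.52 for mitochondrially encoded mRNAs. For fatty acid oxidation and ketogenesis it was 0.07, also below the all-gene median, but 14 of 16 genes were positive. After TMM scaling this list was at -0.15 with 6 of 16 positive. On that scale detoxification was at -0.24 with 3 of 15 positive and nuclear respiratory chain subunits at -0.23 with 0 of 18. Mitochondrially encoded mRNAs were at -0.74 with 0 of 12. All 4 medians lay below the all-gene value of -0.01 on that scale. A missed threshold with 3 mice per day does not show that the sections responded alike.

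**Figure D5:**
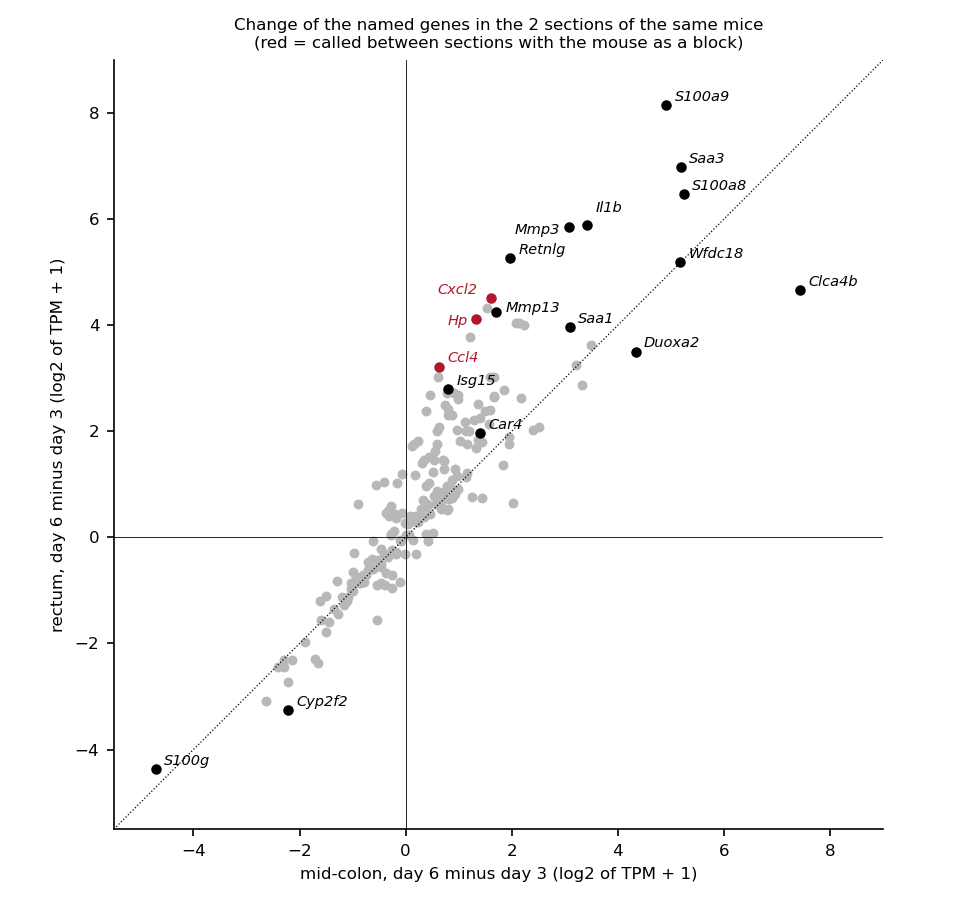
Change from day 3 to day 6 in the mid-colon (x axis, log2 scale) against the change in the rectum (y axis, log2 scale) for the genes chosen by the naming rule, with a line of equal change. Cxcl2, Ccl4 and Hp lie above the line, by 2.90, 2.59 and 2.78.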

How the data were processed

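Per the labels' protocols, RNA of dissected gut sections was extracted with Trizol, made into stranded mRNA libraries and read from 1 end for 75 bp. The authors deposited 1 table of TPM values (a relative signal, per the file's values) for mouse transcripts, and the submitters' processing notes name kallisto, CASAVA and mm10 without versions or roles. Of 126860 rows, 37344 had no values and 1318 repeated a transcript. The remaining 88198 transcripts were summed per gene, except 1284 without a gene, which gave 30452 genes. The table holds no read counts, so the depth is unknown and no counting interval is given. The number of mice, 3 per day, limits the precision.

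The test was limma 3.58.1 (R 4.3.3) with a trended prior, on log2 of TPM plus a pseudocount of 1, in the samples compared only. Genes with at least 1 TPM in at least 3 samples were tested, and those with a Benjamini-Hochberg adjusted p under 0.05 were called. The pipeline was tested on simulated data. TMM factors were computed on the TPM table (30% trimmed on ratios, 5% on levels). Sums, lists and plots used Python 3.11.15, numpy 2.4.6, pandas 2.3.3 and matplotlib 3.10.9. The section difference used 12 samples. The mouse number pairs sections of one animal, per the labels; deviations of the sections from their group means correlated at 0.363, -0.0751, 0.183, 0.309, 0.393 and 0.513 in mice 5 to 10 (mean 0.281).

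The comparison, the gene lists and the rule for named genes were chosen with earlier results of these data known. The rule names the 10 largest rises and 10 largest falls among called genes with a mean of at least 8 TPM in 1 group, no overlap and a proper symbol, and per list up to 5 called genes of the largest change and 2 abundant ones that did not pass. Some of these are given only within their list's counts, and a few are not reported here. Alternatives were TMM factors, a pseudocount of 0.1, a filter of 5 TPM, no filter, all days in the fit, a 2-fold minimum, each mouse left out, the mouse as a replicate block and, chosen after seeing the data, TPM rescaled without mitochondrially encoded genes.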

Additional observations from a re-analysis of the deposited data

Results flagged for a closer look

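The change from day 3 to day 6 differed between rectum and mid-colon for 1 gene in the planned fit, without the mouse as a term. With the mouse as a replicate block, an alternative fit, it differed for 4 genes. Gm7332, a locus of unknown function, went down in the rectum and up in the mid-colon, with a difference of -5.12, and was called with and without the mouse as a replicate block (adjusted p = 0.0105 without it and 0.0139 with it, limma). The call was lost without mouse 5, 7, 8 or 9, without a filter on low values and with all days in the fit (adjusted p 0.0559 to 0.999, limma, no block). Its rectal samples of day 6 were all listed at 0. Cxcl2 (2.90), Hp (2.78) and Ccl4 (2.59) changed more in the rectum on the log2(TPM + 1) scale, which understates changes near 0 TPM. The mean of Cxcl2 went from 0.488 to 41.1 TPM in the rectum and from 0.0388 to 3.07 TPM in the mid-colon. Its fold changes of mean TPM were thus of similar size in both sections, while those of Hp and Ccl4 were larger in the rectum, all from means near 0 TPM. These 3 differences rest on the block. They were called only with the block (adjusted p = 0.0139, 0.038 and 0.0139, limma). Without the block their adjusted p was 0.688, 0.688 and 0.379. In the mid-colon of day 6 the 3 mice were at 0.415, 1.86 and 6.95 TPM for Cxcl2, 0.801, 0.972 and 4.69 TPM for Hp and 0.145, 1.08 and 1.23 TPM for Ccl4, and each was below every rectal value of that day.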

How the results depend on the processing

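The count of genes called between the days depended on the scale, the filter and single mice more than on the pseudocount. It was 3336 as reported and 3264 with a pseudocount of 0.1, 2646 with TMM factors, 2706 with a filter of 5 TPM and 3197 with all rectal days in the fit. TMM factors left 981 genes lower, the filter of 5 TPM left 799 higher, and rescaling without mitochondrially encoded genes, chosen after seeing the data, gave 3513 lower. Without a filter there were 1794 calls (782 higher, 1012 lower) among 20621 genes, and with a 2-fold minimum 1170 (719 higher, 451 lower). Leaving out each mouse in turn, with fewer samples in the fit, gave 1519 to 3054 calls (663 to 1219 higher, 838 to 1835 lower). For the difference between rectum and mid-colon, the replicate block moved the count from 1 to 4, all days in the fit gave 0, and leaving out a mouse gave 0 to 5. Depth is unknown, so levels near 0 TPM have no stated precision, and the cause of each of these shifts was not tested. Of the 112 genes named with a test between the days, 99 were called, and none changed direction under the alternatives in which it was tested. With the filter of 5 TPM only 97 of the 112 were tested, and mt-Atp6 was left out of the fit without mitochondrially encoded genes. Calls were lost for 17 without a filter, 14 with the 2-fold minimum, 11 with all days in the fit, 2 with TMM factors, 0 with a pseudocount of 0.1, and 0 to 13 with 1 mouse left out. With all days in the fit these were B2m, Ccl3, Ccl4, Cd74, Cyp2c55, Gbp2, Ifit3, Il18, Pcna, Psmb8 and Slc26a2. Without a filter they were Atoh1, Cd44, Chga, Csf3, Ereg, Gm7332, Il6, Mmp10, Mmp13, Osm, Pcna, Pdk1, Reg4, Slc26a2, Socs3, Tff3 and mt-Atp6.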

Other observations

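Of 13 tested genes of low oxygen and glycolysis, 6 rose and 1 fell (9 and 1 with TMM factors), with a median of 0.60. Among all genes, 10% were called higher and 17.3% lower (13.7% and 8.05% with TMM factors). Adm, the vasodilator adrenomedullin, went from 0.968, 4.84 and 2.26 TPM to 16.7, 17.5 and 10.2 TPM (change 2.21, SE 0.38, adjusted p = 0.00701, limma). Egln3, an oxygen-sensing prolyl hydroxylase, went from 52.6, 57.2 and 62.8 TPM to 106, 155 and 149 TPM (change 1.22, SE 0.16, adjusted p = 0.0038, limma). Pdk1, a kinase that keeps pyruvate out of mitochondria, was the member that fell, from 61.3, 59.7 and 57.2 TPM to 37.7, 37.8 and 21.6 TPM (change -0.90, adjusted p = 0.0186, limma). Pdk1 was no longer called without mouse 5, 6 or 7 (adjusted p 0.0512 to 0.059). Dusp1, a phosphatase of the immediate early class that ends MAP kinase signaling, rose from 7.23, 9.34 and 7.20 TPM to 40.2, 33.9 and 109.8 TPM (change 2.61, SE 0.39, adjusted p = 0.00466, limma). It was 1 of 3 called among 10 of its list (6 with TMM factors or without mouse 9, and 1 without mouse 6, 8 or 10).

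Transcription factors that mark the distal colon were lower in 3 of 5 tested (2 with TMM factors), beside 17.3% of all genes called lower (8.05% with TMM factors). Hoxd13, a homeobox gene of the hindgut end, went from 51.8, 52.8 and 67.1 TPM to 33.0, 37.2 and 24.4 TPM (change -0.85, SE 0.18, adjusted p = 0.014, limma). Cdx1, a homeobox factor of the gut epithelium list, went from 136, 152 and 155 TPM to 65.3, 93.9 and 63.3 TPM (adjusted p = 0.00599, limma). The gut epithelium list had no common direction. Of its 10 genes 1 was higher and 3 lower on TPM, with a median of -0.14. With TMM factors 3 were higher and 1 lower, with a median of 0.04. The junction genes Cldn2 and Cldn15, which form cation pores in crypts, were at 24.6 to 26.9 TPM and 6.96 to 8.70 TPM in the uninjured rectum, at 1.38, 2.74 and 2.44 TPM and 3.12, 2.27 and 4.58 TPM on day 3 and at 0.795, 0.185 and 0.177 TPM and 1.00, 0.819 and 1.06 TPM on day 6 (adjusted p = 0.0145 and 0.0124, limma). Cldn2 lost its call without mouse 6 (adjusted p 0.0541). They are among 3 lower and none higher of 13 tested junction genes (2 lower with TMM factors), with a list median of -0.10, beside 17.3% of all genes called lower. Of 16 tested cholesterol synthesis genes 2 were higher and 2 lower, near the shares of all genes (10% and 17.3%). Their median was -0.20 on TPM and 0.02 with TMM factors.

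B cell markers did not reach the level needed for testing, and their values split the mice of day 6. The 6 genes summed to 1.67, 1.07 and 1.26 TPM in mice 5, 6 and 7 and to 20.3, 12.2 and 2.08 TPM in mice 8, 9 and 10. Uninjured mice summed to 1.96 to 33.7 TPM, so single day 0 samples were as high. Mouse 10, highest in neutrophil genes, was lowest of its day here. Smooth muscle markers, which track any muscle left on the section, summed to 961, 1094 and 1362 TPM and 1564, 1430.0 and 1167 TPM, with overlapping ranges and 0 of 7 genes called by limma on TPM (4 higher with TMM factors). The levels of Car4, Zg16 and Saa1, below the uninjured range on day 3 and above it on day 6, were picked out after the values were seen.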
